A study of Homo sapiens with 100 samples.

Results

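The genes described here are 10 members of the cereblon degradation pathway, followed as mRNA in TMD8 cells: the 5 subunits of the CRL4-CRBN ubiquitin ligase (CRBN, DDB1, CUL4A, CUL4B and RBX1) and 5 proteins reported as its drug-induced substrates (ZFP91, ZNF692, ZMYM2, CSNK1A1 and GSPT1). They were taken by gene symbol from the deposited count table, and made up 10 of its 42760 rows with a symbol and of its 78894 gene rows in all. All 10 passed the filter on low counts in every fit. TMD8 is an established lymphoma line of the activated B cell kind, and depends on the kinase BTK. The cultures came from 11 single-cell clones, 5 with wild-type BTK and 6 that carry the A428D change in the endogenous BTK gene, plus 1 untreated culture of the parental line.

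Each of the 11 clones received 8 conditions for 24 h, which gave 88 libraries in 16 groups of 5 wild-type or 6 A428D clones. These were DMSO (the solvent), each of zelebrudomide, bexobrutideg, pomalidomide and venetoclax alone, and each of the first 3 drugs together with venetoclax. Another 12 libraries were of untreated cells: the 11 clones and the parental line. Zelebrudomide and bexobrutideg join BTK to cereblon so that BTK is ubiquitinated and degraded, and zelebrudomide also directs cereblon to the lymphoid transcription factors IKZF1 and IKZF3. Pomalidomide binds cereblon and directs it to IKZF1 and IKZF3 without binding BTK. Venetoclax blocks BCL2, which keeps cells alive. No source used here gives the doses. A428D is attached to SF3B1 in the titles of the samples but to BTK in the protocol and the design, and counts from transcript 3' ends cannot check the base change. All clones of a genotype descend from 1 cell line, so the spread between clones is the spread within TMD8.

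In the CRL4-CRBN ligase a cullin, CUL4A or CUL4B, forms the scaffold. RBX1 sits at one end of it and brings in the ubiquitin-charged enzyme, and DDB1 at the other end holds the substrate receptor CRBN. Drugs of the thalidomide family fill a pocket in CRBN and create a surface to which other proteins, called neosubstrates, bind and are then ubiquitinated. This control acts on proteins, whereas the values here are mRNA levels, so that loss of a neosubstrate protein need not appear in them.

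The results turn mainly on 4 of the genes: ZNF692, whose mRNA was higher with pomalidomide, and CUL4B, ZMYM2 and GSPT1, which moved with venetoclax. The stretches of sequence upstream of their start sites are shown for that reason, from RefSeq's promoter table on GRCh38.p14, which held windows for 10 of the 10 genes. For each gene, the listed start was used whose 250 bases upstream held the longest run free of exons in GENCODE 29, and that run is printed 5' to 3' on the gene's strand. Capitals mark matches on either strand to 4 motifs: CACGTG (the E-box), TGGGAA (the core bound by Ikaros proteins), CCGGAAG (the ETS core) and CCAAT. No marked match overlaps another.
CUL4B, chrX:120561454-120561703, minus strand: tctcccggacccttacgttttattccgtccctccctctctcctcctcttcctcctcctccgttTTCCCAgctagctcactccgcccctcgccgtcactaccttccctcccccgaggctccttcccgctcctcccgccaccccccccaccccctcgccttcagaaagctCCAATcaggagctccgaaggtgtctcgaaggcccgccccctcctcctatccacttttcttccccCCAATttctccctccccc
ZMYM2, chr13:19957173-19957422, plus strand: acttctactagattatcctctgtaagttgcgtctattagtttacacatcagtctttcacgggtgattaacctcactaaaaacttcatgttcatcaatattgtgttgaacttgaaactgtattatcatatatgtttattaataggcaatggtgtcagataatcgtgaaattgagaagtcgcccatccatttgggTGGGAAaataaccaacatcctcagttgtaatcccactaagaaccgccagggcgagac
GSPT1, chr16:11916655-11916904, minus strand: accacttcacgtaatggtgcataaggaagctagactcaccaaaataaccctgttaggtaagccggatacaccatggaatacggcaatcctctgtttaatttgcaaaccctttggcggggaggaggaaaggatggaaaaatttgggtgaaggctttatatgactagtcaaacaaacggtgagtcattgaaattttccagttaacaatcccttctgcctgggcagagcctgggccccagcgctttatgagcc
ZNF692, chr1:248859247-248859335, minus strand: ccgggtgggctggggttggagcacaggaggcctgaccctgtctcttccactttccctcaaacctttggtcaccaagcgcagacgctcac
CUL4B and ZMYM2, which were lower together with venetoclax, each held 1 match to TGGGAA, and CUL4B held 2 matches to CCAAT. No match to any of the 4 motifs lay in the stretch of GSPT1 or of ZNF692. Among members not printed, CSNK1A1 held 1 match to TGGGAA and 1 to CCAAT, ZFP91 2 to CCAAT and RBX1 1 to CACGTG. The windows of CRBN, DDB1 and CUL4A held none. The stretch of ZNF692 is 89 bases long and ends 161 bases before the start site, and that of CUL4B belongs to a start inside the gene's annotated span (chrX:120524609-120575794). The stretches of ZMYM2 and GSPT1 belong to listed starts upstream of the annotated spans (chr13:19958670-20091829 and chr16:11868128-11916082). Over all 35116 windows of 250 bases in the table, 20.8% held TGGGAA, 32.0% CCAAT, 8.52% CCGGAAG and 6.34% CACGTG, so single matches were common, and which listed start these cells used was not measured.

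Libraries held between 1476519 and 12501775 counted reads, with a median of 7144208. The shallowest was the wild-type clone 3 library given venetoclax with bexobrutideg, and its members' values stood apart from the other 4 clones of its group in several genes named below. The members' counts for that group, and the fold changes it moved most, are given with and without it. B cell markers such as MS4A1 and CD79A summed to between 1770 and 3470 CPM (a gene's reads relative to the library's scaled total) in every library, while T and NK cell markers reached at most 23.8, myeloid markers 2.28, erythroid markers 1.17 and epithelial markers 2.17. Fibroblast and endothelial markers summed to at most 32.9. Libraries of the same clone deviated together from their group means, so a fit with clone as a replicate block was run as well.

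Each comparison was tested with edgeR over 14962 genes with calls made where the adjusted p was below 0.05. The share of all tested genes called is given beside each count of members, as the background against which that count has to be read. In wild-type clones against DMSO, 0 of 10 members were called with zelebrudomide (all genes 6.57%) and 0 of 10 with bexobrutideg (all genes 2.45%). At an unadjusted p under 0.05 the counts were 2 and 0, and DESeq2 called 0 and 0. With zelebrudomide CUL4A was called with the replicate block (all genes 16.2%) and without the shallowest library (all genes 8.52%). With pomalidomide 1 of 10 was called (9.99% of all genes), with venetoclax 4 of 10 (32.8%), with venetoclax and zelebrudomide 5 of 10 (23.4%), with venetoclax and bexobrutideg 2 of 10 (21.3%; without the shallowest library 1 of 10, RBX1, and 19.7%), and with venetoclax and pomalidomide 5 of 10 (36.8%). With the block, CSNK1A1 was added for venetoclax (5 of 10, all genes 45%) and CUL4A with zelebrudomide on top (6 of 10, all genes 35.1%). ZMYM2 was added with bexobrutideg on top (3 of 10, all genes 32.5%). All 7 comparisons share the same DMSO libraries.

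In A428D clones against DMSO, 0 of 10 members were called with zelebrudomide (all genes 2.06%) and 0 of 10 with bexobrutideg (all genes 0%). Both counts were also 0 at an unadjusted p under 0.05 and with DESeq2. With pomalidomide 1 of 10 was called (8.68% of all genes), 3 of 10 with venetoclax (16.8%), 5 of 10 with venetoclax and zelebrudomide (26.2%), 3 of 10 with venetoclax and bexobrutideg (15.7%) and 6 of 10 with venetoclax and pomalidomide (30.4%). The replicate block added ZFP91 for pomalidomide (2 of 10, all genes 16.7%) and CUL4A and ZMYM2 for venetoclax (5 of 10, all genes 30.7%). It also added RBX1 with zelebrudomide on top (6 of 10, all genes 38.7%) and DDB1 with bexobrutideg on top (4 of 10, all genes 28.9%). The venetoclax counts lay near the background shares in some comparisons and above them in others. With 10 members they say little about the set as such, and the results below concern single genes. The heat map of fold changes shows where the calls fall. Of the 48 calls described here, 24 were lost when no filter on low counts was applied, and 25 held when any 1 clone was left out. The wild-type venetoclax count is 7 without the shallowest library (36.6% of all genes), which adds CUL4A, ZNF692 and CSNK1A1.

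**Figure D1:**
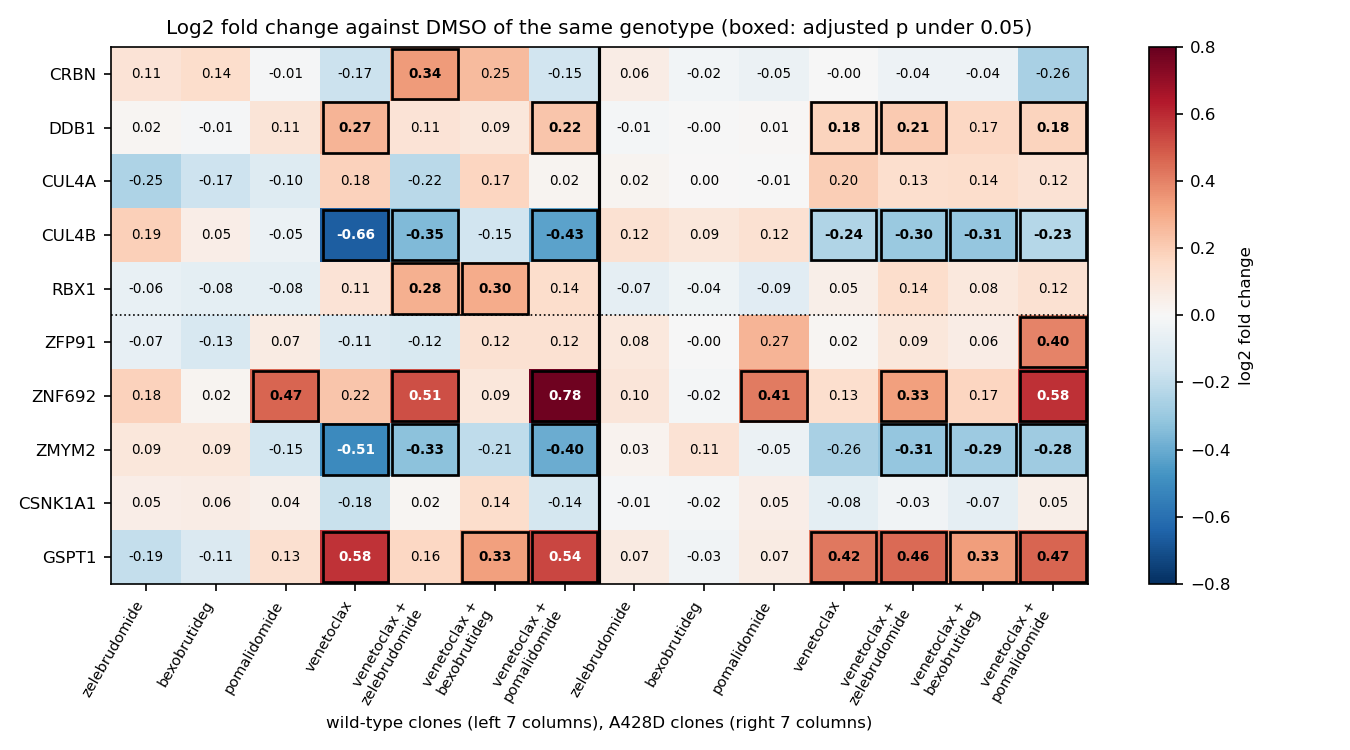
Log2 fold change of each of the 10 members (rows) against DMSO of the same genotype, for 7 treatments in wild-type clones (n = 5, left) and in A428D clones (n = 6, right); boxes mark an adjusted p under 0.05 and the dotted line separates ligase subunits from neosubstrates. The 4 columns of single BTK degraders hold no box, and CUL4B, ZMYM2 and GSPT1 carry most of the boxes in the venetoclax columns.

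Apart from CUL4B, the members varied no more across the 16 groups treated for 24 h than the median gene. The ratio of the highest to the lowest group mean CPM ran from 1.28 for DDB1 to 1.80 for CUL4B, and its median over all genes with a finite ratio was 1.72. ZNF692 had a ratio of 1.72 and GSPT1 of 1.71, whereas RBX1, ZFP91 and CSNK1A1 lay between DDB1 and CUL4A (1.37). The highest means of CUL4A and CSNK1A1 and the lowest of ZNF692 were in the wild-type group with the shallowest library. Their ratios therefore depend in part on it. Across the 16 group means CUL4B and ZMYM2 followed each other (Pearson's r = 0.962) and GSPT1 ran against both (r = -0.899 with CUL4B and -0.939 with ZMYM2). These correlations describe 16 means that share clones and conditions, mainly the presence or absence of venetoclax, and carry no test. Untreated cultures stood apart from DMSO in several members. Wild-type means untreated and under DMSO were 241 and 85.6 CPM for GSPT1, 318 and 136 for RBX1 and 163 and 98.0 for DDB1. They were 100 and 65.4 for CUL4A, 22.9 and 16.1 for ZNF692, 28.9 and 43.7 for CUL4B and 41.5 and 42.9 for ZMYM2. The untreated libraries were a separate set scaled on its own, and this difference was not tested.

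CRBN, the substrate receptor and the direct target of the degraders and of pomalidomide, was not called with any single compound in either genotype. In wild-type clones 1 to 5 it stood at 15.5, 13.1, 12.4, 12.2 and 14.01 CPM under DMSO and at 14.9, 13.4, 11.3, 15.3 and 11.6 CPM under pomalidomide. The pomalidomide values lay on both sides of the DMSO values (log2 fold change -0.01 ± 0.12 (SE), 95% interval -0.25 to 0.23). In A428D clones CRBN was 10.1 at the lowest, 13.3 at the median and 17.01 CPM at the highest under DMSO. The values in the same clones under pomalidomide were 11.2 at the lowest, 13.01 at the median and 14.4 CPM at the highest, within the DMSO range.

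Venetoclax with zelebrudomide gave the highest CRBN level of the 16 groups, a mean of 16.8 ± 3.48 CPM (SD, n = 5) in wild-type clones. The 5 clones stood at 17.9, 15.6, 11.4, 19.2 and 20.2 CPM, against 11.99, 12.1, 11.3, 12.4 and 11.8 CPM with venetoclax alone, so clone 3 alone stayed at its venetoclax level (CRBN had between 32 and 127 reads in a library). Against venetoclax alone CRBN rose by 0.51 ± 0.13 on the log2 scale (adjusted p = 0.002). Against DMSO the change was 0.34 ± 0.13 (adjusted p = 0.0376), a call lost without clone 2, 4 or 5 (adjusted p up to 0.231). With no filter on low counts neither passed (adjusted p = 0.0834 and 0.42).

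With venetoclax and bexobrutideg the 5 wild-type clones stood at 15.6, 14.8, 15.9, 16.1 and 17.7 CPM, all above the 5 venetoclax values. CRBN rose by 0.43 ± 0.13 against venetoclax alone (adjusted p = 0.0152), and was still called without the shallowest library (0.40 ± 0.13, adjusted p = 0.0297), although not without clone 4 or 5 (adjusted p up to 0.0875) or with no filter (0.295). Among wild-type libraries, those with venetoclax plus zelebrudomide (3149400 to 6123117 reads) or plus bexobrutideg (1476519 to 6110216 reads) were shallower than those with venetoclax alone (6490252 to 7393694 reads), and the part of depth in these results was not tested. In A428D clones CRBN was at 13.2 ± 2.64 CPM with venetoclax, 12.9 ± 1.49 with zelebrudomide added and 12.97 ± 2.06 with bexobrutideg added (SD, n = 6). For venetoclax with zelebrudomide against DMSO, the difference in response between genotypes was -0.38 ± 0.17 (adjusted p = 0.227), so no difference was established. Whether the genotypes differed in the change of CRBN from venetoclax alone was not tested.

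CRBN and TRNT1, an enzyme that finishes tRNA ends, lie on opposite strands of chromosome 3 (CRBN at chr3:3144628-3179727, GRCh38, GENCODE 29) and their exons share 595 bases. Since the strand setting of the counting was not given in the sources used here, reads in that overlap cannot be assigned with certainty. TRNT1 did not pass the test against venetoclax alone with zelebrudomide added (-0.05 ± 0.11, adjusted p = 0.798) or with bexobrutideg added (0.15 ± 0.11, adjusted p = 0.377). Over the 16 group means the genes whose pattern was most like that of CRBN were TLE6 (Pearson's r = 0.908), AFF2 (0.904) and the ribosomal protein pseudogene RPL5P9 (0.902), whose counts are uncertain because near-identical copies exist.

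**Figure D2:**
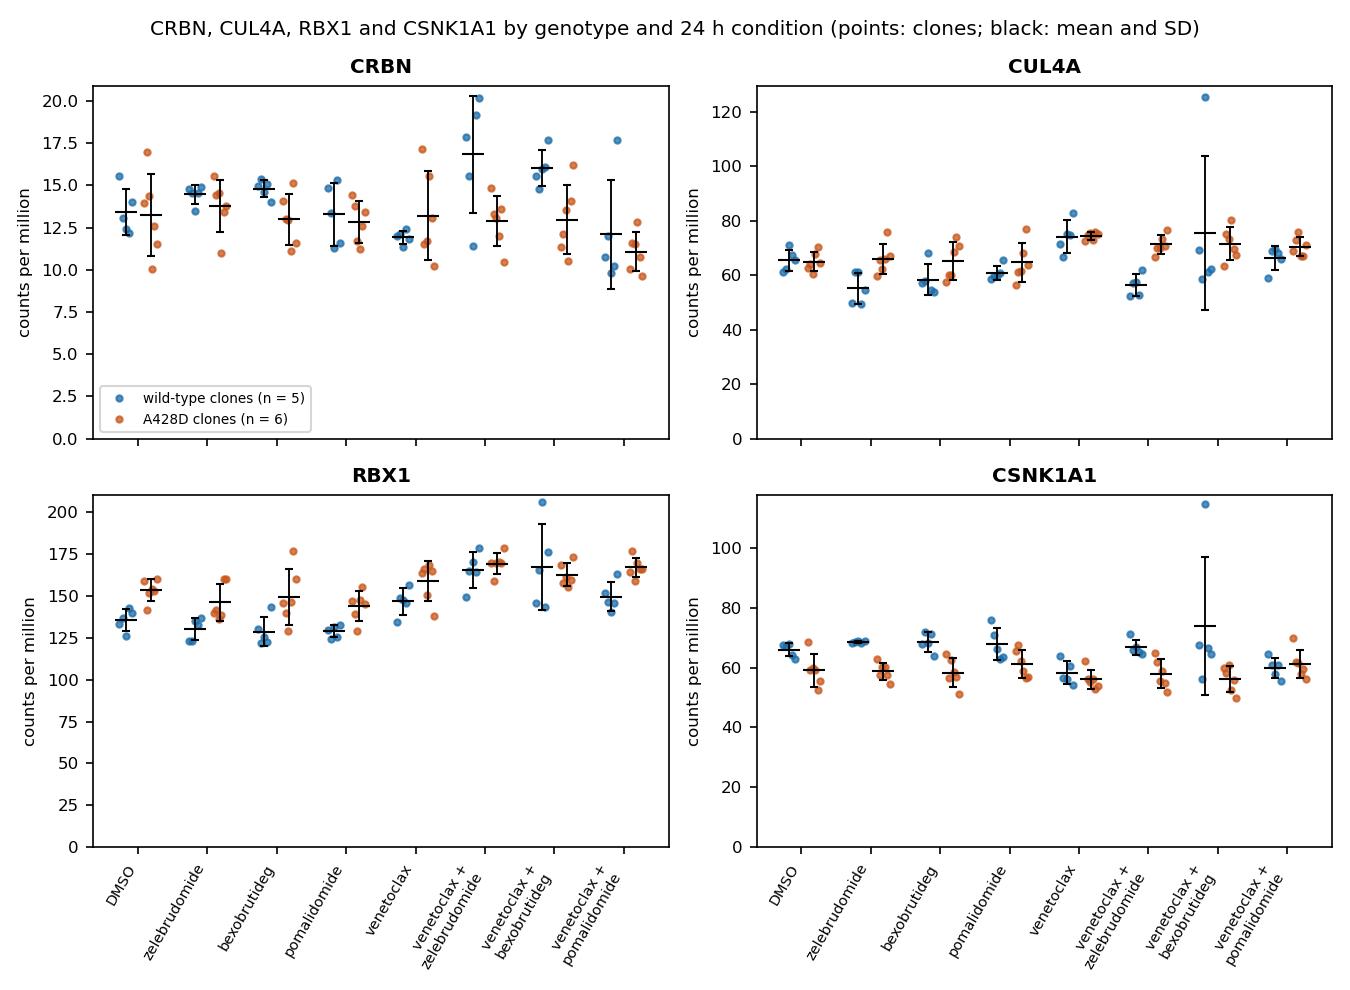
CPM of CRBN, CUL4A, RBX1 and CSNK1A1 (y axis, from 0) in the 8 conditions (x axis) for wild-type clones (blue, n = 5) and A428D clones (orange, n = 6); points are clones and black marks the mean and SD. A single blue point lies far above its group in the CUL4A and CSNK1A1 panels under venetoclax with bexobrutideg, the clone 3 library at 125.6 and 115 CPM.

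DDB1, the adaptor that links CRBN to the cullin, was slightly higher with venetoclax in both genotypes. Wild-type clones 1 to 5 stood at 91.4, 101, 110.2, 94.05 and 93.5 CPM under DMSO and at 104, 114, 134, 121 and 119 CPM under venetoclax. Each clone was higher with the drug, while the 2 groups overlapped. DDB1 rose by 0.27 ± 0.07 (adjusted p = 0.0011).

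In A428D clones DDB1 was 98.5 at the lowest, 108 at the median and 117 CPM at the highest under DMSO. Under venetoclax it was 117 at the lowest, 122 at the median and 128 CPM at the highest, so that only the top of the DMSO range reached the venetoclax range. The rise was 0.18 ± 0.06 (adjusted p = 0.0372), lost without clone 2 (adjusted p = 0.0801). DDB1 also rose with venetoclax and pomalidomide in wild-type clones (0.22 ± 0.07, adjusted p = 0.00709) and in A428D clones (0.18 ± 0.06, adjusted p = 0.0224), and with venetoclax and zelebrudomide in A428D clones (0.21 ± 0.06, adjusted p = 0.00779). Of these, the A428D result with pomalidomide was lost without clone 3 (adjusted p = 0.135). With venetoclax and bexobrutideg the A428D value, 0.17 ± 0.06, did not pass (adjusted p = 0.056) but passed with the block (0.0134). All 5 DDB1 calls were lost with no filter on low counts (adjusted p from 0.0926 to 0.423). Exons of DDB1 share 521 bases with TKFC on the opposite strand, and TKFC was not called with venetoclax in wild-type (0.09 ± 0.13, adjusted p = 0.612) or A428D clones (0.19 ± 0.12, adjusted p = 0.283).

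CUL4B, one of the 2 alternative scaffolds, fell in 7 of the 8 comparisons of a venetoclax treatment with DMSO. In wild-type clones 1 to 5 it was at 40.6, 41.9, 41.6, 47.5 and 46.9 CPM under DMSO and at 26.3, 25.6, 29.6, 26.9 and 30.03 CPM under venetoclax. The 2 groups did not overlap, and every clone was lower with the drug. CUL4B fell by 0.66 ± 0.09 on the log2 scale (adjusted p = 1.07e-07), and stayed called when any 1 clone was left out (adjusted p up to 5.74e-05).

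In A428D clones CUL4B was 32.9 at the lowest, 38.1 at the median and 45.9 CPM at the highest under DMSO. The same clones under venetoclax were 27.6 at the lowest, 33.5 at the median and 35.6 CPM at the highest, lower in all 6 clones although the ranges overlapped. CUL4B fell by 0.24 ± 0.09 (adjusted p = 0.0451), a marginal call that was lost when any 1 of the 6 clones was left out (adjusted p up to 0.328, without clone 3), with DESeq2 (adjusted p = 0.0543) and with no filter (0.608). The fold change in A428D clones was 0.42 ± 0.13 above that in wild-type clones, with an unadjusted p of 0.00161 and an adjusted p of 1 (0.0738 with the block), so the difference between genotypes did not pass the test.

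In the combinations CUL4B stood at 36.2, 32.3, 28.4, 37.6 and 35.6 CPM with zelebrudomide added and 39.5, 35.1, 48.8, 40.0001 and 35.4 CPM with bexobrutideg added in wild-type clones 1 to 5. Both sets lay between the venetoclax and DMSO values in 4 of the 5 clones each. Against venetoclax alone CUL4B rose by 0.51 ± 0.10 with bexobrutideg (adjusted p = 0.0001) and by 0.41 ± 0.10 (adjusted p = 0.00183) without the shallowest library, and by 0.30 ± 0.10 with zelebrudomide (adjusted p = 0.0196), the latter lost without clone 1, 2, 4 or 5 (adjusted p up to 0.194) and with no filter (0.594). With pomalidomide added it was 0.23 ± 0.10 (adjusted p = 0.147), which passed with the replicate block (adjusted p = 0.0425). In A428D clones the means were 32.7 ± 2.82 CPM with venetoclax, 31.5 ± 1.05 with zelebrudomide added, 31.2 ± 1.19 with bexobrutideg added and 32.9 ± 4.83 with pomalidomide added (SD, n = 6), all below the DMSO mean of 38.7 ± 4.52.

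Against DMSO, CUL4B fell with venetoclax and zelebrudomide (by 0.35 ± 0.10 in wild-type clones, adjusted p = 0.00435, and by 0.30 ± 0.09 in A428D clones, adjusted p = 0.00702). It fell with venetoclax and pomalidomide as well (by 0.43 ± 0.09, adjusted p = 0.000177, and by 0.23 ± 0.09, adjusted p = 0.0348). With venetoclax and bexobrutideg it fell in A428D clones (by 0.31 ± 0.09, adjusted p = 0.00894), whereas the wild-type value of -0.15 ± 0.10 did not pass (adjusted p = 0.275), and was -0.23 ± 0.10 (adjusted p = 0.084) without the shallowest library. The 3 A428D calls were each lost without clone 3 (adjusted p = 0.102, 0.204 and 0.177), the A428D clone with the highest DMSO level of CUL4B, and without clone 4. The one with pomalidomide was lost when any 1 clone was left out, and all 3 with no filter (adjusted p from 0.201 to 0.483).

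CUL4A, the other scaffold, did not follow CUL4B. In wild-type clones 1 to 5 it stood at 61.01, 62.3, 70.96, 67.3 and 65.6 CPM under DMSO and at 71.4, 66.6, 75.3, 74.9 and 82.9 CPM under venetoclax. The venetoclax values were higher in mean but overlapped those under DMSO (0.18 ± 0.10, adjusted p = 0.142). In A428D clones the ranges did not overlap, 60.5 to 70.5 CPM under DMSO and 72.6 to 76.05 under venetoclax, and the change of 0.20 ± 0.09 (adjusted p = 0.116) passed with the block (adjusted p = 0.0297) and without the shallowest library.

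The lowest CUL4A mean of the 16 groups was that of wild-type clones given zelebrudomide (55.2 CPM). Clones 1 to 5 stood at 49.8, 61.1, 61.03, 49.4 and 54.8 CPM, and the difference from DMSO of -0.25 ± 0.10 did not pass (adjusted p = 0.129) but passed with the replicate block (adjusted p = 0.0236) and without the shallowest library. Added to venetoclax, zelebrudomide brought the 5 clones to 52.4, 57.2, 57.5, 52.9 and 62.1 CPM, all below the venetoclax values, and CUL4A fell by 0.40 ± 0.10 against venetoclax alone (adjusted p = 0.00193). Against DMSO the difference of -0.22 ± 0.10 did not pass (adjusted p = 0.103) but passed with the block (0.0393). A428D clones stood at 71.3 ± 3.38 CPM with the combination and 74.5 ± 1.42 with venetoclax (SD, n = 6). The difference between genotypes in the response to the combination against DMSO was 0.35 ± 0.13 (adjusted p = 0.141). It passed with the block (adjusted p = 0.0284) and without the shallowest library. The change from venetoclax alone was not compared between genotypes.

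Bexobrutideg added to venetoclax gave 69.2, 58.7, 126, 61.1 and 62.4 CPM in wild-type clones 1 to 5, where clone 3 stood far above the others. With this library CUL4A did not differ from venetoclax alone by the test, and without it CUL4A was lower by 0.26 ± 0.08 on the log2 scale (adjusted p = 0.0111). CUL4A shares 437 exonic bases with PCID2 on the opposite strand. PCID2 moved alongside it: it rose with venetoclax in wild-type clones (0.35 ± 0.08, adjusted p = 0.000267) and fell by 0.40 ± 0.08 when zelebrudomide was added (adjusted p = 0.000134). Reads of the pair cannot be told apart in the overlap.

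RBX1, the RING subunit, was called in 2 comparisons of the main fit, both of combinations with DMSO in wild-type clones. Clones 1 to 5 stood at 133, 137, 126, 143 and 140.1 CPM under DMSO and at 149, 165, 170.1, 165 and 178 CPM with venetoclax and zelebrudomide. The 2 groups did not overlap, and RBX1 rose by 0.28 ± 0.07 (adjusted p = 0.00124). With venetoclax and bexobrutideg it rose by 0.30 ± 0.07 (adjusted p = 0.000838), and by 0.20 ± 0.07 (adjusted p = 0.0185) without the shallowest library, in which it reached 206 CPM. Leaving out all libraries of clone 3 ended the call with bexobrutideg (adjusted p = 0.0564), and applying no filter on low counts ended both (adjusted p = 0.379 with zelebrudomide and 0.322 with bexobrutideg). In A428D clones the value with venetoclax and zelebrudomide, 0.14 ± 0.06, did not pass (adjusted p = 0.0808) but passed with the block (0.0306), with DESeq2 (0.0314) and without the shallowest library. With venetoclax alone the value was 0.11 ± 0.07 (adjusted p = 0.212) in wild-type and 0.05 ± 0.06 (adjusted p = 0.642) in A428D clones. With venetoclax and pomalidomide RBX1 was not called in the main fit, but passed in both genotypes without the shallowest library. Its means there were 150 CPM in wild-type and 167 in A428D clones, against 136 and 153 under DMSO.

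ZNF692, a zinc finger protein reported to be degraded through cereblon with drugs of this family, had higher mRNA with pomalidomide in both genotypes. Wild-type clones 1 to 5 stood at 17.6, 14.7, 15.6, 16.6 and 15.9 CPM under DMSO and at 23.4, 20.3, 21.6, 22.1 and 23.7 CPM under pomalidomide. Every clone was higher with the drug and the 2 groups did not overlap. ZNF692 rose by 0.47 ± 0.13 on the log2 scale (adjusted p = 0.00771), and stayed called when any 1 clone was left out (adjusted p up to 0.0469).

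In A428D clones ZNF692 was 14.5 at the lowest, 18.4 at the median and 20.8 CPM at the highest under DMSO. With pomalidomide it was 21.3 at the lowest, 23.6 at the median and 27.6 CPM at the highest, above every DMSO value. The rise of 0.41 ± 0.12 (adjusted p = 0.0109) was lost without clone 1 or 2 (adjusted p up to 0.0584); clone 1 had the lowest DMSO level. The difference in response between genotypes was -0.05 ± 0.17 (95% interval -0.39 to 0.29, adjusted p = 1), and for pomalidomide 0 of 10 members and 0% of all genes differed between genotypes.

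**Figure D3:**
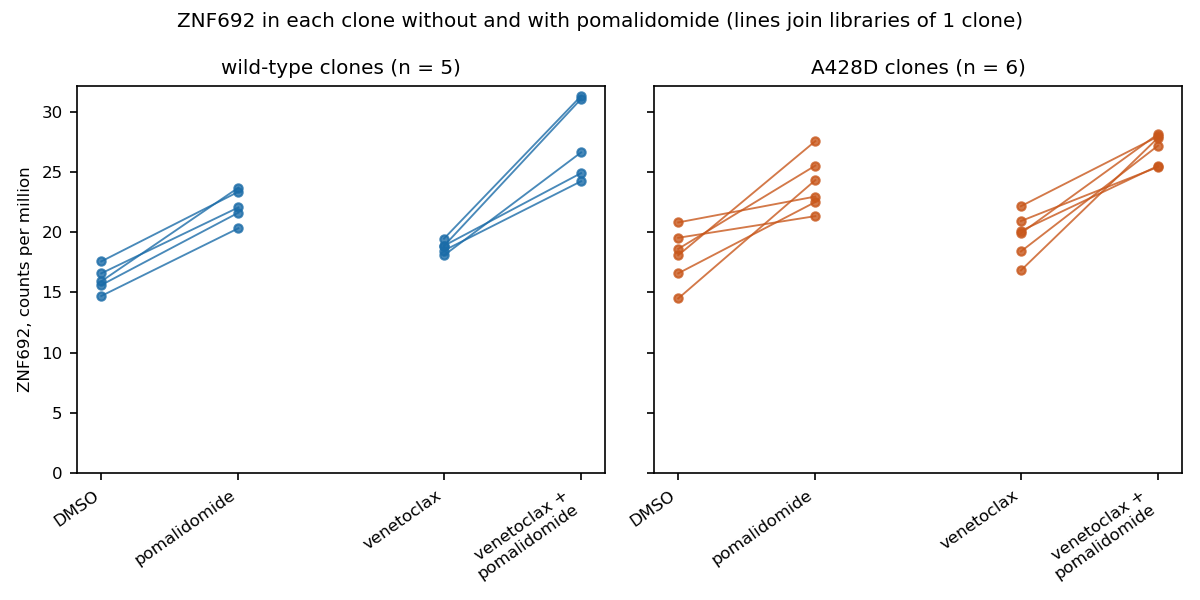
ZNF692 in CPM (y axis, from 0) without and with pomalidomide, alone and on top of venetoclax, in wild-type clones (n = 5, left) and A428D clones (n = 6, right); each line joins 2 libraries of 1 clone. Every line rises.

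Pomalidomide raised ZNF692 on top of venetoclax as well. With venetoclax, wild-type clones 1 to 5 stood at 18.9, 19.5, 18.9, 18.1 and 18.5 CPM alone and at 31.1, 31.3, 24.9, 26.6 and 24.2 CPM with both drugs. ZNF692 rose by 0.56 ± 0.13 against venetoclax (adjusted p = 0.00103) and by 0.78 ± 0.13 against DMSO (adjusted p = 7.88e-07), with no overlap in either comparison. In A428D clones it was 16.8 at the lowest, 20.01 at the median and 22.2 CPM at the highest with venetoclax and 25.4 at the lowest, 27.5 at the median and 28.2 CPM at the highest with both. The rises there were 0.45 ± 0.11 against venetoclax (adjusted p = 0.0046, 0.0509 without clone 4) and 0.58 ± 0.12 against DMSO (adjusted p = 4.6e-05). Venetoclax alone also stood above DMSO in wild-type clones, at 18.1 to 19.5 against 14.7 to 17.6 CPM. That difference was not called in the main fit but passed without the shallowest library. In A428D clones the ranges overlapped and it was not called in either. Rises of combinations against DMSO therefore do not isolate the second drug.

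Zelebrudomide, which shares the cereblon-binding activity towards IKZF1 and IKZF3, gave smaller values. ZNF692 stood at 19.4, 16.9, 17.5, 15.98 and 21.9 CPM in wild-type clones 1 to 5, and the difference from DMSO was 0.18 ± 0.13 (adjusted p = 0.491). In A428D clones it was 0.10 ± 0.12 (adjusted p = 0.946). With venetoclax and zelebrudomide ZNF692 rose against DMSO, by 0.51 ± 0.13 in wild-type (adjusted p = 0.00241) and 0.33 ± 0.12 in A428D clones (adjusted p = 0.0278, up to 0.0679 without clone 1 or 3 and 0.0648 with no filter). Against venetoclax alone the wild-type value of 0.29 ± 0.13 did not pass (adjusted p = 0.104) but passed with the block (0.0438), with DESeq2 (0.0412) and without the shallowest library.

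Bexobrutideg left ZNF692 within -0.23 to 0.28 of DMSO on the log2 scale in wild-type clones and within -0.25 to 0.22 in A428D clones (95% intervals). With venetoclax and bexobrutideg wild-type clones 1 to 5 stood at 20.1, 19.6, 2.99, 19.6 and 17.9 CPM, where the clone 3 value rests on 6 reads. The difference from DMSO was 0.09 ± 0.14 (adjusted p = 0.705) with that library and 0.25 ± 0.10 (adjusted p = 0.0696) without it.

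ZFP91, a ubiquitin ligase that is itself a reported neosubstrate, rose when pomalidomide was added to venetoclax in A428D clones. In those clones it was 26.1 at the lowest, 31.7 at the median and 35.7 CPM at the highest under DMSO. With pomalidomide it was 31.9 at the lowest, 38.1 at the median and 42.7 CPM at the highest, higher in each of the 6 clones with overlapping ranges. The change of 0.27 ± 0.10 did not pass (adjusted p = 0.0622) but passed with the replicate block (adjusted p = 0.00816) and with DESeq2 (adjusted p = 0.0356).

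Added to venetoclax in A428D clones, pomalidomide took ZFP91 from 29.1 to 35.2 CPM up to 35.2 to 46.9. The groups met without overlapping, and ZFP91 rose by 0.38 ± 0.10 (adjusted p = 0.00403, 0.0742 without clone 4 and 0.0554 with no filter). Against DMSO the rise was 0.40 ± 0.10 (adjusted p = 0.000735). Wild-type clones 1 to 5 stood at 38.9, 33.8, 32.5, 32.8 and 32.1 CPM with venetoclax and 35.8, 36.4, 42.02, 42.5 and 42.1 CPM with both, a difference of 0.23 ± 0.10 (adjusted p = 0.201, 0.0473 with the block). The genotypes did not differ by the test in their response to the combination against DMSO (0.28 ± 0.14, adjusted p = 1). ZFP91 shares 1685 exonic bases on the same strand with the readthrough gene ZFP91-CNTF, so its counts are uncertain, and 52% of libraries gave it a fractional count.

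GSPT1, the translation termination factor eRF3a and the neosubstrate of the cereblon drug CC-885, was higher with venetoclax. Its values in wild-type clones 1 to 5 were 76.3, 91.3, 96.97, 81.3 and 82.1 CPM under DMSO and at 126, 136, 136, 116 and 126 CPM under venetoclax. Every clone was higher and the groups did not overlap. GSPT1 rose by 0.58 ± 0.10 (adjusted p = 4.48e-06).

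In A428D clones GSPT1 was 71.9 at the lowest, 82.7 at the median and 97.3 CPM at the highest under DMSO. With venetoclax it was 106 at the lowest, 112 at the median and 126 CPM at the highest, again without overlap. The rise was 0.42 ± 0.09 (adjusted p = 0.000655), and the genotypes did not differ by the test (-0.16 ± 0.14, 95% interval -0.43 to 0.11). Both calls held when any 1 clone was left out (adjusted p up to 7.17e-05 and 0.00799). GSPT1 also rose with venetoclax and pomalidomide, by 0.54 ± 0.10 in wild-type (adjusted p = 1.4e-05) and 0.47 ± 0.09 in A428D clones (adjusted p = 4.6e-05).

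GSPT1 was lower when zelebrudomide was added to venetoclax in wild-type clones. The 5 clones stood at 94.6, 99.04, 113, 88.9 and 84.4 CPM, all below the venetoclax values, and GSPT1 fell by 0.42 ± 0.10 against venetoclax (adjusted p = 0.00159), back to a level 0.16 ± 0.10 from DMSO (adjusted p = 0.256). In A428D clones the combination held GSPT1 at 99.8 at the lowest, 113 at the median and 143 CPM at the highest, and it rose by 0.46 ± 0.09 against DMSO (adjusted p = 0.000112). The difference between genotypes in the response to the combination against DMSO was 0.29 ± 0.14. Its unadjusted p was 0.0364 and its adjusted p 0.262 (0.0593 with the block), so it did not pass. Whether the genotypes differed in the change from venetoclax alone was not tested.

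With bexobrutideg added to venetoclax, wild-type clones 1 to 5 stood at 97.8, 107, 150.03, 87.5 and 100.2 CPM. Clone 3 alone exceeded every venetoclax value. With it GSPT1 rose against DMSO by 0.33 ± 0.10 (adjusted p = 0.0137) and did not pass against venetoclax (adjusted p = 0.0792, 0.00566 with the block). Without it the change was 0.18 ± 0.10 against DMSO (adjusted p = 0.181; 0.224 with it and no filter), and GSPT1 fell by 0.41 ± 0.10 against venetoclax (adjusted p = 0.00172). In A428D clones GSPT1 rose by 0.33 ± 0.09 against DMSO (adjusted p = 0.00761, 0.0752 without clone 3).

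ZMYM2, a zinc finger protein of transcriptional repressor complexes and a reported pomalidomide neosubstrate, was lower with venetoclax. Wild-type clones 1 to 5 stood at 46.4, 38.4, 42.7, 44.8 and 42.3 CPM under DMSO and at 35.4, 29.1, 30.2, 29.7 and 26.2 CPM under venetoclax. Every clone was lower and the groups did not overlap. ZMYM2 fell by 0.51 ± 0.11 (adjusted p = 0.000124, up to 0.00603 with 1 clone left out).

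In A428D clones ZMYM2 was 35.9 at the lowest, 38.5 at the median and 45.3 CPM at the highest under DMSO. With venetoclax it was 27.9 at the lowest, 34.5 at the median and 35.02 CPM at the highest, lower in all 6 clones with no overlap, and the change of -0.26 ± 0.10 (adjusted p = 0.0602) passed with the block (adjusted p = 0.00663). ZMYM2 fell against DMSO with venetoclax and zelebrudomide by 0.33 ± 0.11 in wild-type (adjusted p = 0.0244) and 0.31 ± 0.10 in A428D clones (adjusted p = 0.0151). With venetoclax and pomalidomide it fell by 0.40 ± 0.11 in wild-type (adjusted p = 0.00233) and 0.28 ± 0.10 in A428D clones (adjusted p = 0.0238). With venetoclax and bexobrutideg it fell by 0.29 ± 0.10 in A428D clones (adjusted p = 0.0326), while the wild-type value of -0.21 ± 0.11 did not pass (adjusted p = 0.186; 0.0386 with the block), and was -0.29 ± 0.11 (adjusted p = 0.0624) without the shallowest library. Of these 5 calls in combinations, the wild-type one with pomalidomide held when any 1 clone was left out. The wild-type call with zelebrudomide was lost without clone 3, 4 or 5 (adjusted p up to 0.144). In A428D clones the calls with zelebrudomide and with pomalidomide were lost without clone 1, 2, 3 or 4 (up to 0.114 and 0.13), and that with bexobrutideg without any 1 of the 6 (up to 0.173). The 3 A428D calls were also lost with no filter (adjusted p from 0.159 to 0.323).

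Pomalidomide alone left ZMYM2 at 42.5, 37.2, 37.1, 38.5 and 38.5 CPM in wild-type clones 1 to 5, a difference of -0.15 ± 0.11 from DMSO that did not pass (adjusted p = 0.508). The value in A428D clones was -0.05 ± 0.10 (adjusted p = 0.892).

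**Figure D4:**
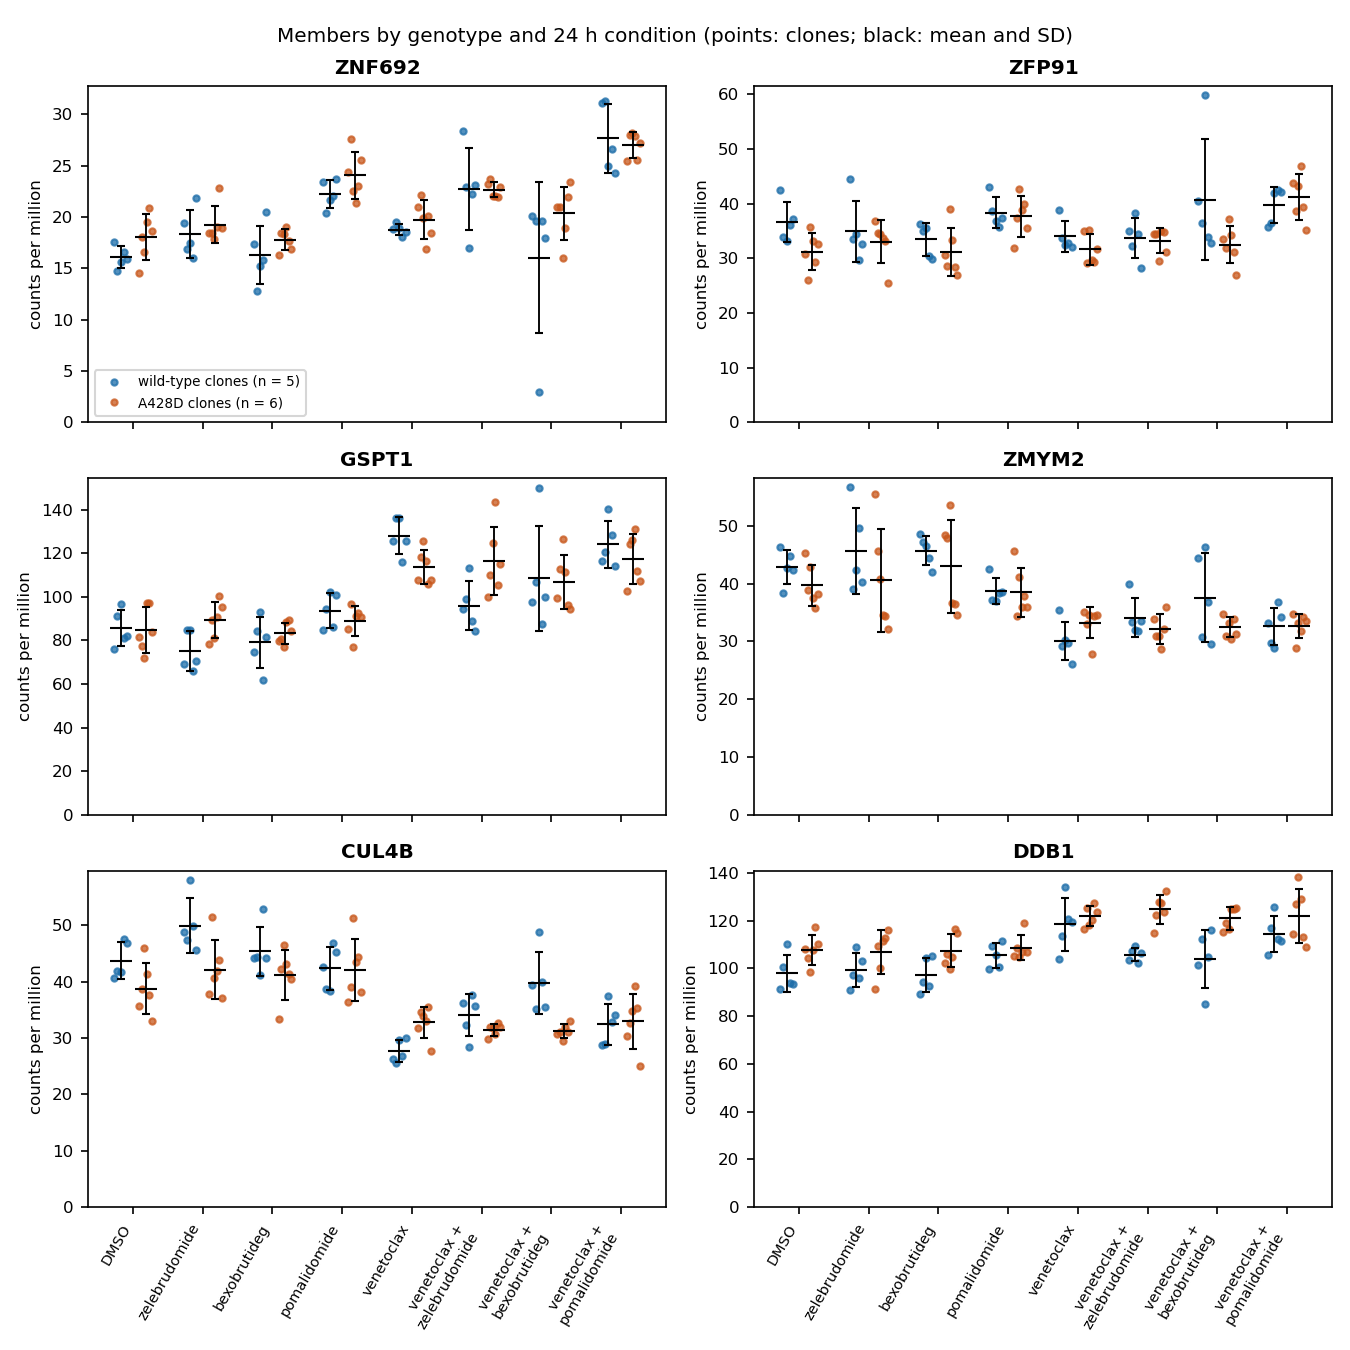
CPM (y axis, from 0) of ZNF692, ZFP91, GSPT1, ZMYM2, CUL4B and DDB1 in the 8 conditions (x axis) for wild-type clones (blue, n = 5) and A428D clones (orange, n = 6); points are clones and black marks the mean and SD. ZNF692 is higher in the 2 pomalidomide columns, GSPT1 is higher and ZMYM2 and CUL4B are lower with venetoclax, and the low blue point of ZNF692 under venetoclax with bexobrutideg is the shallowest library at 2.99 CPM.

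CSNK1A1, casein kinase 1 alpha and the neosubstrate of lenalidomide, was close to DMSO under most treatments. In wild-type clones 1 to 5 it stood at 67.6, 67.2, 67.9, 64.2 and 62.95 CPM under DMSO and at 63.9, 56.6, 56.1, 60.7 and 54.2 CPM under venetoclax. Every clone was lower with venetoclax, and the change of -0.18 ± 0.09 did not pass (adjusted p = 0.0996) but passed with the block (0.0261) and without the shallowest library. Its 1 call was against venetoclax when bexobrutideg was added in wild-type clones (0.32 ± 0.09, adjusted p = 0.007). That group held 67.6, 56.2, 115, 66.6 and 64.5 CPM in clones 1 to 5, and without the shallowest library, the high value of clone 3, the difference was 0.11 ± 0.07 (adjusted p = 0.311). With no filter it did not pass either (adjusted p = 0.48). CSNK1A1 shares 2886 exonic bases on the same strand with AC021078.1, a transcript without an established symbol, and 61% of libraries gave it a fractional count.

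The libraries with a second compound on top of venetoclax were also compared with venetoclax alone. In wild-type clones zelebrudomide changed 4 of 10 members (21.2% of all genes): CRBN and CUL4B were higher and CUL4A and GSPT1 lower. The replicate block gave 8 of 10 (32.5% of all genes), adding DDB1, RBX1, ZNF692 and CSNK1A1. Leaving out the shallowest library gave 7 (26% of all genes), adding DDB1, ZNF692 and CSNK1A1. Bexobrutideg changed 3 of 10 (15.5% of all genes): CRBN, CUL4B and CSNK1A1 were higher. The block gave 7 (25.4% of all genes), adding DDB1, RBX1, ZMYM2 and GSPT1. Without the shallowest library 4 were called with bexobrutideg (15.6% of all genes), CRBN and CUL4B upward and CUL4A and GSPT1 downward. These 2 comparisons share the venetoclax libraries. Pomalidomide changed 1 of 10, ZNF692 (8.41% of all genes). The block gave 3 of 10 (17.2% of all genes), adding CUL4B and ZFP91.

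In A428D clones zelebrudomide added to venetoclax changed 0 of 10 members (1.07% of all genes) and bexobrutideg 0 of 10 (0% of all genes). Both counts were also 0 at an unadjusted p under 0.05, with the block and with DESeq2. Pomalidomide changed 2 of 10, ZFP91 and ZNF692 (7.91% of all genes).

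Zelebrudomide and bexobrutideg, which share BTK as their target and differ in activity towards IKZF1 and IKZF3, were compared directly. In wild-type clones 0 of 10 members differed (1.23% of all genes) and in A428D clones 0 of 10 (1.24% of all genes), with 0 in each at an unadjusted p under 0.05 and with DESeq2. The largest difference in wild-type clones was that of ZNF692 at 0.16 ± 0.13 (95% interval -0.10 to 0.42), which does not show that the compounds act alike. Between zelebrudomide and pomalidomide GSPT1 differed in wild-type clones (7.43% of all genes, 1 of 10 members). It was lower by 0.32 ± 0.10 with zelebrudomide (adjusted p = 0.0364, up to 0.251 without clone 1, 2, 4 or 5 and 0.173 with no filter), from 69.001, 84.98, 84.9, 65.9 and 70.6 CPM with zelebrudomide and 84.7, 94.3, 102, 86.2 and 101 CPM with pomalidomide in clones 1 to 5. With the block 3 members differed (18.4% of all genes), CUL4B (adjusted p = 0.0199) and ZMYM2 (adjusted p = 0.0367) as well. Without the shallowest library ZNF692 passed beside GSPT1 (9.68% of all genes).

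In A428D clones the comparison of zelebrudomide with pomalidomide called 0 of 10 members (0.842% of all genes), 1 at an unadjusted p under 0.05 and 0 with DESeq2. That member was ZNF692, lower with zelebrudomide in all 6 clones (-0.32 ± 0.11, adjusted p = 0.299), which passed with the block (adjusted p = 0.0368) and without the shallowest library. Doses were not given, so that none of these comparisons is known to be at matched doses.

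No member differed between genotypes in its response to any of the 7 treatments against DMSO, with edgeR or with DESeq2. The share of all genes that did was 1.04% for zelebrudomide, 0.615% for bexobrutideg, 0% for pomalidomide, 0% for venetoclax, 3.32% for venetoclax with zelebrudomide, 1.94% with bexobrutideg and 0.00668% with pomalidomide. In the same order 1, 0, 0, 1, 3, 1 and 0 of 10 members had an unadjusted p under 0.05. The 1 difference that passed with the replicate block was that of CUL4A given above, where 11.6% of all genes passed with the block.

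Between genotypes without a drug, 0 of 10 members differed under DMSO (7.13% of 13397 genes tested), 4 had an unadjusted p under 0.05 and DESeq2 called 1, RBX1 (adjusted p = 0.0453). ZFP91 had the largest difference, 36.6 ± 3.67 CPM in wild-type and 31.3 ± 3.34 in A428D clones (SD, n = 5 and 6), or -0.24 ± 0.09 on the log2 scale (adjusted p = 0.114).

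In untreated cultures 2 of 10 members differed (5.9% of 14564 genes tested). GSPT1 stood at 234, 242, 238, 249 and 241 CPM in wild-type clones 1 to 5 and at 204 at the lowest, 212 at the median and 218 CPM at the highest in A428D clones. No A428D clone reached the lowest wild-type clone or the parental library at 241 CPM, and GSPT1 was lower by 0.19 ± 0.04 in A428D clones (adjusted p = 0.00588, up to 0.0227 with 1 clone left out). ZMYM2 stood at 39.99, 44.5, 41.3, 41.5 and 40.1 CPM in wild-type clones 1 to 5 and 44.6 at the lowest, 46.7 at the median and 52.3 CPM at the highest in A428D clones. The groups did not overlap, with the parental library at 39.8 CPM, and ZMYM2 was higher by 0.19 ± 0.05 in A428D clones (adjusted p = 0.0398), a call lost when any 1 of 8 clones was left out (adjusted p up to 0.103, without wild-type clone 5) and with no filter (0.0538).

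Neither difference passed the test in the DMSO libraries of the same clones. There GSPT1 stood at -0.03 ± 0.09 (95% interval -0.21 to 0.16) and ZMYM2 at -0.12 ± 0.08 (-0.28 to 0.03), so that the interval of ZMYM2 under DMSO excluded the untreated value. The untreated libraries were a separate set that was scaled on its own, and exposure and set cannot be told apart.

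**Figure D5:**
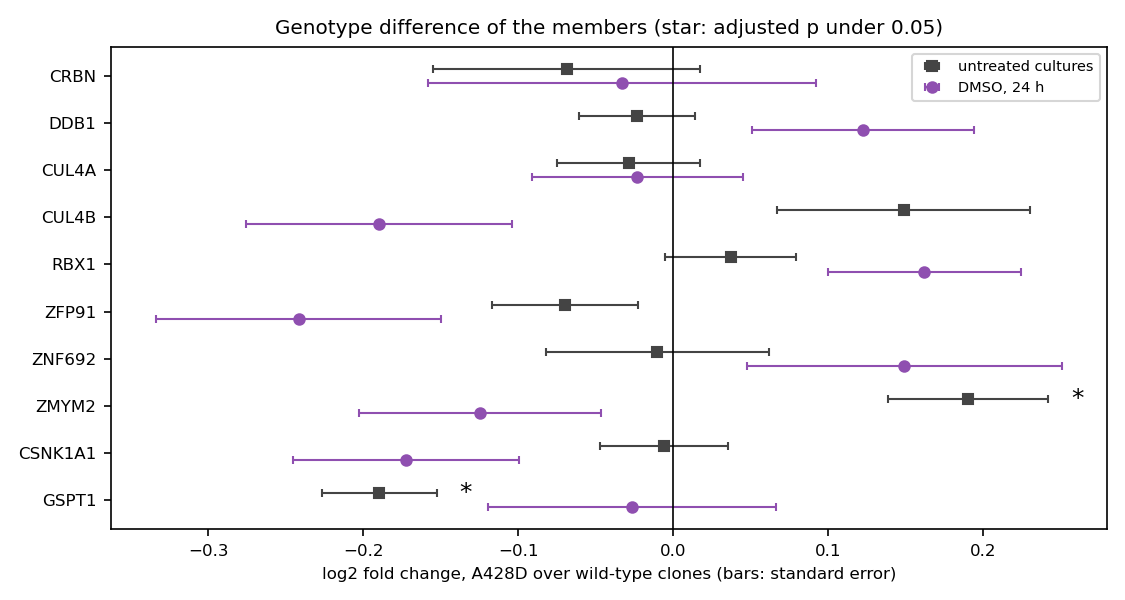
Log2 fold change of A428D over wild-type clones (x axis; bars are standard errors) for the 10 members (y axis) in untreated cultures (squares, 6 against 5 clones) and after 24 h with DMSO (circles, 6 against 5 clones); stars mark an adjusted p under 0.05. GSPT1 at -0.19 and ZMYM2 at 0.19 carry stars in the untreated set, and ZMYM2 and CUL4B are among those on opposite sides of 0 in the 2 sets.

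Genes around the ligase were called mainly with venetoclax, where 32.8% of all genes passed in wild-type and 16.8% in A428D clones. Of 25 genes for neddylation, the cullin exchange factor CAND1 and the COP9 signalosome, which switch cullin ligases on and off, 10 rose and 1 fell with venetoclax in wild-type clones (median log2 fold change 0.26, all genes -0.06), and 6 rose and 1 fell in A428D clones (median 0.16, all genes -0.04). COPS6, a subunit of the signalosome, rose by 0.64 ± 0.11 in wild-type clones (adjusted p = 6.21e-06), and NAE1, which activates NEDD8, by 0.65 ± 0.12 (adjusted p = 1.37e-05) and by 0.40 ± 0.11 in A428D clones (adjusted p = 0.00665). With zelebrudomide, bexobrutideg or pomalidomide alone, 0 of these 25 genes were called in either genotype. All genes gave 6.57%, 2.45% and 9.99% in wild-type and 2.06%, 0% and 8.68% in A428D clones. With the block in wild-type clones, 2 rose with zelebrudomide and 1 with pomalidomide (all genes 16.2% and 19.2%). Bexobrutideg gave 1 up and 1 down there (all genes 10.6%). In A428D clones the block gave 1 up with zelebrudomide and 2 up with pomalidomide (all genes 6.73% and 16.7%).

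Among 22 other substrate receptors of CRL4 tested, 2 rose and 4 fell with venetoclax in wild-type clones (all genes 32.8%). In A428D clones 3 rose and 1 fell (all genes 16.8%). DTL, the receptor that acts at replicating DNA, rose most, by 1.74 ± 0.24 (adjusted p = 2.91e-08) and 1.14 ± 0.22 (adjusted p = 0.00011). With zelebrudomide 3 of the 22 fell in wild-type clones, DCAF17, DCAF12 and DDB2, where 6.57% of all genes were called, and 0 were called in A428D clones. With pomalidomide 2 of the 22 fell in each genotype, a share near that of all genes called (9.99% in wild-type and 8.68% in A428D clones), with DCAF17 in both (-0.49 ± 0.12, adjusted p = 0.00239, and -0.47 ± 0.11, adjusted p = 0.00196). Of 13 ubiquitin-conjugating enzymes and accessory factors, 3 rose with venetoclax in wild-type clones (all genes 32.8%), and in A428D clones 2 rose and 1 fell (all genes 16.8%).

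Of 19 further reported neosubstrates tested, 1 rose with pomalidomide in each genotype and 0 fell (all genes 9.99% in wild-type and 8.68% in A428D clones). This was IKZF1, a lymphoid transcription factor and the main target of pomalidomide, at 0.93 ± 0.07 in wild-type (adjusted p = 1.35e-18) and 0.90 ± 0.06 in A428D clones (adjusted p = 4.01e-20). IKZF1 rose with zelebrudomide too (0.59 ± 0.07, adjusted p = 8.86e-10, and 0.71 ± 0.06, adjusted p = 2.23e-14), where ZNF692 did not pass the test. Of 6 reported endogenous partners of cereblon, 2 fell with pomalidomide in both genotypes, GLUL and MEIS2 (all genes 9.99% and 8.68%). GLUL, glutamine synthetase, fell by 0.50 ± 0.11 and 0.47 ± 0.10 (adjusted p = 0.000534 and 0.000294). GLUL was lower with zelebrudomide too, in wild-type (-0.34 ± 0.11, adjusted p = 0.041) and A428D clones (-0.38 ± 0.10, adjusted p = 0.0157). Of 12 relatives and partners of the neosubstrates, 1 rose and 4 fell with venetoclax in wild-type clones (all genes 32.8%). In A428D clones 1 rose and 1 fell (all genes 16.8%). ETF1, the release factor that works with GSPT1, rose by 0.62 ± 0.10 in wild-type (adjusted p = 1.04e-06) and 0.53 ± 0.09 in A428D clones (adjusted p = 2.78e-05). With pomalidomide 1 of the 12 fell in each genotype (all genes 9.99% and 8.68%). This was ZMYM6, a relative of ZMYM2, by 0.65 ± 0.16 and 0.60 ± 0.15 (adjusted p = 0.00277 and 0.00331).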

How the data were processed

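RNA was measured by 3' end sequencing in 100 libraries, 88 after 24 h of treatment and 12 untreated. The authors deposited estimated counts per gene, of which 8.76% were not whole and were rounded here. The submitters' processing notes name fastp 0.24.0, STAR 2.7.11 and featureCounts of Subread 2.1.1, without the strand setting. Spike-in rows were left out. They held at most 0.00098% of a library. Counts were filtered (filterByExpr, minimum count 10, minimum total 15), scaled by TMM and tested with edgeR 4.0.16 quasi-likelihood fits in R 4.3.3, with Benjamini-Hochberg adjustment over all genes tested. All 16 treated groups shared a fit; the DMSO and the untreated comparison of genotypes were fitted on their own. CPM are TMM-scaled. The scripts were tested on simulated data.

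The members and gene lists were chosen with earlier results of these data known. All members are named. Of the other genes, at most the 3 called with the largest fold change per list and comparison are named, and the 3 most like CRBN by Pearson's r over group means. Libraries of a clone deviated together (median r = 0.614 for the same clone over 500 genes, -0.18 for other clones of the genotype), and the labels give the clone, so a fit with clone as replicate block was run beside each treatment test. Alternatives were DESeq2 1.42.0, RLE size factors, no filter, the compared groups alone, leaving out each clone and leaving out the shallowest library. Whether cultures of a clone were separate was not stated, so p-values measure the spread between these libraries.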

Additional observations from a re-analysis of the deposited data

Results flagged for a closer look

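In groups of 5 or 6 clones, 18 of 180 checks of a member's CPM found a highest or lowest clone further from the others than Dixon's 95% limit, where chance flags about 5%. The shallowest library, wild-type clone 3 with venetoclax and bexobrutideg, gave 4 of them: CUL4A at 125.6, ZFP91 at 59.8 and CSNK1A1 at 115 CPM were high, and ZNF692 at 2.99 CPM was low. The other wild-type values that stood high were CRBN at 17.7 CPM in clone 5 with venetoclax and pomalidomide, CUL4A at 68.1 in clone 3 and CUL4B at 52.8 in clone 4 with bexobrutideg, CUL4A at 65.5 in clone 5 and ZMYM2 at 42.5 in clone 1 with pomalidomide, ZFP91 at 38.9 in clone 1 with venetoclax, and ZMYM2 at 39.9 in clone 1 with venetoclax and zelebrudomide. Low wild-type values were CRBN at 13.5 CPM in clone 3 with zelebrudomide and CSNK1A1 at 80.7 CPM in untreated clone 5.

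Among A428D clones, DDB1 stood high at 119 CPM in clone 5 with pomalidomide, ZNF692 at 22.8 in clone 5 with zelebrudomide and CSNK1A1 at 62.2 in clone 1 with venetoclax. ZFP91 stood low at 25.5 CPM in clone 6 with zelebrudomide, and ZMYM2 at 27.9 in clone 4 with venetoclax.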

How the results depend on the processing

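Of the 48 calls, 20 held under every alternative run, and no call changed direction. With no filter on low counts, calls fell from 17 to 11 against DMSO and from 8 to 4 on top of venetoclax in wild-type clones, from 18 to 7 and from 2 to 1 in A428D clones, from 1 to 0 between compounds in wild-type clones and from 2 to 1 in untreated cultures. The replicate block ended no call, and gave 18 on top of venetoclax and 3 between compounds in wild-type clones, and for A428D 1 between compounds, plus 1 difference in response between genotypes. Fitting only the groups compared gave 3 between compounds in wild-type clones and 1 difference in response. Without the shallowest library there were 2 calls between compounds in wild-type clones, 1 such call for A428D and 1 difference in response. In the shared fit, comparisons without that library changed as well. In wild-type clones, venetoclax against DMSO went from 4 to 7 calls (all genes 36.6%). Zelebrudomide added to venetoclax went from 4 to 7 there (all genes 26%). In A428D clones, venetoclax went from 3 to 4 (all genes 21.4%). Wild-type venetoclax with bexobrutideg against DMSO went from 2 to 1 (all genes 19.7%). DESeq2 called 1 member between genotypes under DMSO. The cause was not tested.

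Leaving out 1 clone gave 8 to 17 calls against DMSO in A428D clones (8 without clone 3, 11 without clone 2) and 0 to 2 on top of venetoclax (0 without clone 4). It gave 0 to 1 between compounds in wild-type clones, 0 to 1 differences in response, 0 to 1 between genotypes under DMSO and 1 to 2 in untreated cultures. No paired analysis was possible because a clone has 1 genotype, for the comparisons between genotypes without a drug. RLE size factors shifted the median of all genes by at most 0.0145 (log2). Low counts limit CRBN and ZNF692 most: ZNF692 had as few as 6 reads in a library.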
